A study of Saccharomyces cerevisiae with 6 samples.

Results

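The 10 genes described here encode the main hexose transporters of budding yeast (HXT1 to HXT7), the glucose sensors SNF3 and RGT2, and the invertase SUC2. They were chosen by name from the 7126 genes counted in each library. Hexose transporters are membrane proteins that let glucose into the cell by facilitated diffusion, and they differ in affinity, so that yeast makes a low-affinity set in abundant glucose and a high-affinity set when glucose runs low. Snf3 and Rgt2 resemble transporters but act as receptors: when bound by glucose they lead to the destruction of the corepressors Mth1 and Std1, which relieves repression of HXT genes by Rgt1. In a parallel route the kinase Snf1, active when glucose is scarce, inhibits the repressor Mig1, which otherwise keeps SUC2 and several high-affinity HXT genes low.

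Total RNA was depleted of ribosomal RNA and sequenced by strand as single 50 bp reads, in 2 libraries each of a casein kinase 2 mutant (ck2ts), a strain with altered Spt6, a histone chaperone (spt6-7SA), and a wild type (WT). All cells grew in YPD, a rich medium with glucose, at 30 °C to an OD600 of 0.5 and were then held at 39 °C for 2 h, so no value before the shift or in another carbon source was measured. The ck2ts strain carried cka1Δ0::KanMX6 and cka2D225N::NAT, which remove or alter the catalytic subunits of the kinase. The spt6-7SA strain had spt6D::kanMX6 on the chromosome and expressed FLAG-spt6 7S-A from a CEN URA3 plasmid, and it also carried IWS1-13MYC::HIS3, his3D200 and ura3Δ0. The ck2ts and WT strains shared a URA3-marked insert at ura3-52, with HHF1 and FLAG-HHT1 on either side of PGAL1/10, that the genotype of spt6-7SA does not list, so these differences and the Spt6 allele cannot be told apart in any comparison with spt6-7SA. All 3 strains were of mating type a and isogenic to S288C, with leu2D1, lys2-128d and a deleted bar1 (by NAT in ck2ts and WT, by KanMX6 in spt6-7SA). Nothing in the labels says that a group's libraries are separate cultures, and p-values measure only the spread between the libraries, which may be technical. Each mutant is a single strain.

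Libraries held between 56307173 and 83375420 sense reads, and antisense reads made up 4.44% to 4.94% of all reads. CKA1 stood at 3.13 and 1.84 CPM (the usual unit of counts relative to the scaled total of a library) in ck2ts, against 61.9 and 60.5 CPM in WT, the strain without the deletion. CKA2 read 69.5 and 58.5 CPM in ck2ts against 115 and 108 CPM in WT, and SPT6 read 511 and 423 CPM in spt6-7SA against 386 and 346 CPM in WT. BAR1 had no read in 5 libraries and 1 read in a library of spt6-7SA. STE2, the alpha-factor receptor of a cells, read between 96.9 and 354 CPM over all libraries, while the alpha pheromone gene MF(ALPHA)2 stayed between 0.311 and 3.67 CPM. Not every alpha-cell gene was that low: SAG1, given below with the markers of mating type, stood well above MF(ALPHA)2 in every library.

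On the sense strand most of the 10 genes differed from WT in each mutant, in both directions. In ck2ts 4 members rose (HXT4, HXT5, HXT6 and HXT7), 4 fell (HXT1, HXT2, HXT3 and SUC2) and 2 did not pass an adjusted p of 0.05 (SNF3 and RGT2), where 64.8% of all 6778 genes tested passed, 32.5% higher and 32.3% lower. In spt6-7SA 5 rose (HXT4, HXT5, HXT6, HXT7 and RGT2), 3 fell (HXT2, HXT3 and SNF3) and 2 did not pass (HXT1 and SUC2), against 50.8% of all genes, 26.7% higher and 24.1% lower. As most genes passed in each mutant, nothing particular to the members is read from these counts. HXT6 and HXT7 are counted separately in all counts and medians of members, though they share most of their reads and are not separate measurements (below). In bulk RNA, fewer cells that express a gene and less of its RNA per cell cannot be told apart. The median log2 fold change of the 10 members was -0.10 in ck2ts and 0.14 in spt6-7SA, beside 0.02 over all genes in each. Each member is 1 exon, given below with its systematic name and position in build R64. Both comparisons use the same 2 WT libraries, so a change shared by the mutants is not seen independently in each.

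**Figure D1:**
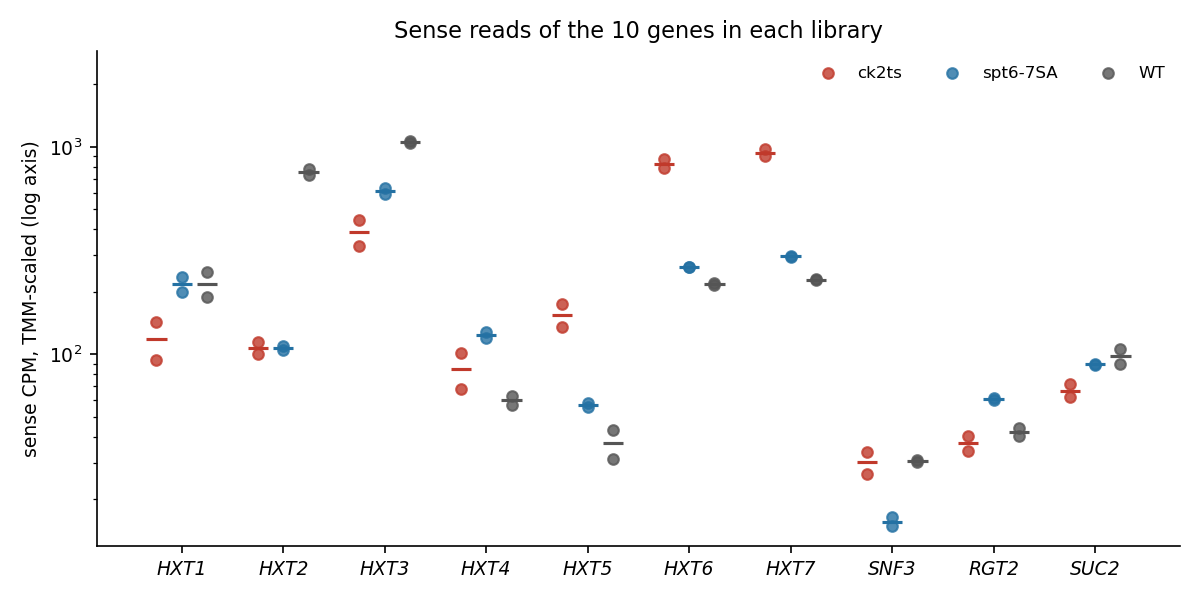
Sense CPM of the 10 genes in each library on a log axis; each point is 1 library and each short line the mean of the 2 libraries of ck2ts, spt6-7SA or WT. HXT2 sits near 107 CPM in both mutants and at 756 CPM in WT, and HXT6 and HXT7 stand highest in ck2ts.

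HXT2 (YMR011W, chrXIII:288079-289704, + strand), a transporter of high to moderate affinity made mainly at low glucose, fell furthest of the members in both mutants, by all reads of the gene and by its end parts alone. It read 114 and 99.98 CPM in ck2ts and 109 and 104 CPM in spt6-7SA, against 781 and 732 CPM in WT. The 4 mutant libraries lay in a narrow band far below both WT libraries. The log2 fold change was -2.82 (SE 0.11, edgeR adjusted p = 6.02e-06) in ck2ts and -2.82 (SE 0.11, adjusted p = 5.59e-05) in spt6-7SA. Set directly against ck2ts, spt6-7SA differed by -0.00 (SE 0.10, adjusted p = 0.978), which misses the threshold but does not show that the levels are equal. No word of 50 bases in HXT2 occurs elsewhere in the genome in exactly the same letters, and reads of its end parts alone gave -2.81 in ck2ts and -2.84 in spt6-7SA.

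The region before HXT2 is shown because it holds letters known to be bound by the Rgt1 and Mig1 repressors close together. The stretch chrXIII:287489-287694 (build R64, + strand) lies before the start codon, with capitals marking, on either strand, matches to CGGANNA (Rgt1) and to the letters CTGGGG or CCGGGG or GTGGGG or GCGGGG (Mig1).
HXT2 upstream stretch: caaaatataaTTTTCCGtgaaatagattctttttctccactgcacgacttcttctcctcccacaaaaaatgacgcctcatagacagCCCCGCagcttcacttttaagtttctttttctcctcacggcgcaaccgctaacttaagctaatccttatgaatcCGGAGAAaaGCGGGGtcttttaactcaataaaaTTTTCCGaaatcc
In the 600-base window that begins 700 bases before the start codon, HXT2 had 3 Mig1 and 3 Rgt1 matches. Of 5985 regions of the same length before protein-coding genes, members included, 29.8% held a Mig1 match and 50.2% an Rgt1 match, while 1.17% held 3 or more Mig1 matches and 4.13% held 3 or more Rgt1 matches. A match is a description of the letters and not evidence that the protein bound there.

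HXT3 (YDR345C, chrIV:1162957-1164660, - strand), a low-affinity transporter induced by glucose, was the most abundant member in WT and fell in both mutants. It read 334 and 444 CPM in ck2ts and 593 and 631 CPM in spt6-7SA, against 1067 and 1043 CPM in WT. The 3 groups did not overlap, with ck2ts lowest. The log2 fold change was -1.44 (SE 0.15, adjusted p = 0.000132) in ck2ts and -0.79 (SE 0.15, adjusted p = 0.00437) in spt6-7SA, and the mutants differed by 0.65 (SE 0.15, adjusted p = 0.00851), higher in spt6-7SA, a call lost without spt6-7SA replicate 2 (0.61, adjusted p = 0.0558). The stretch before HXT3, chrIV:1164970-1165205 (R64, - strand), is shown for its run of Rgt1 matches, which are in capitals.
HXT3 upstream stretch: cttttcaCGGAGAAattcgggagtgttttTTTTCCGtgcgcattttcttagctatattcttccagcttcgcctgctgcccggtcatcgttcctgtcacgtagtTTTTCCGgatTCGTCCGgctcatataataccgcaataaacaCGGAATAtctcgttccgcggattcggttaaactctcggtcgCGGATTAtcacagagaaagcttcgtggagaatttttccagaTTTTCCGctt
HXT3 had 8 Rgt1 matches in the 600-base window, a number that 0.0167% of the 5985 windows reach, and 2 Mig1 matches, which 6.20% reach.

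HXT1 (YHR094C, chrVIII:290913-292625, - strand), the low-affinity transporter made at high glucose, read 93.5 and 143 CPM in ck2ts and 200 and 236 CPM in spt6-7SA, against 189 and 248 CPM in WT. Both ck2ts libraries lay below all 4 others, and the spt6-7SA and WT libraries overlapped. The log2 fold change of HXT1 in ck2ts was -0.89 (SE 0.22, adjusted p = 0.0118), a call that was lost without WT replicate 2 (-0.68, adjusted p = 0.0737). In spt6-7SA the log2 fold change was -0.00 (SE 0.22, adjusted p = 0.993), and the direct difference of spt6-7SA over ck2ts was 0.89 (SE 0.22, adjusted p = 0.0156), or 0.76 (adjusted p = 0.0793) without spt6-7SA replicate 2. Its upstream window held 4 Rgt1 matches, a number that 1.17% of the windows reach, and no Mig1 match.

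HXT4 (YHR092C, chrVIII:287081-288811, - strand), a transporter of moderate to high affinity repressed by Mig1 at high glucose, read 68.3 and 102 CPM in ck2ts and 128 and 120 CPM in spt6-7SA, against 57.2 and 63.2 CPM in WT. All 4 mutant libraries were above WT, with spt6-7SA highest. The rise in spt6-7SA was 1.04 on the log2 scale (SE 0.18, adjusted p = 0.00383). The rise in ck2ts was 0.50 (SE 0.18, adjusted p = 0.0464) and rested on the settings: it was 0.17 (adjusted p = 0.226) without ck2ts replicate 2, 0.42 (adjusted p = 0.197) without WT replicate 1 and 0.57 (adjusted p = 0.0973) without WT replicate 2, and it was at 0.50 but no longer passed without either spt6-7SA library. It also missed the threshold at 0.49 without the filter on low counts (adjusted p = 0.0509) and with scaling that leaves out mitochondrially encoded genes (adjusted p = 0.0504), and at 0.50 with only ck2ts and WT fitted (adjusted p = 0.0655). With the end parts alone it was 0.70 (adjusted p = 0.00941). The difference between spt6-7SA and ck2ts, 0.54 (SE 0.18, adjusted p = 0.0407), was 0.28 (adjusted p = 0.0927) without ck2ts replicate 1 and, of the 6 fits that leave out 1 library, passed only in the one without ck2ts replicate 2. With only the mutants fitted it was 0.51 (adjusted p = 0.0766).

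HXT5 (YHR096C, chrVIII:294669-296447, - strand), a transporter made in slowly growing and stressed cells, read 175 and 136 CPM in ck2ts and 58.4 and 55.9 CPM in spt6-7SA, against 31.2 and 43.3 CPM in WT. The groups did not overlap, and ck2ts stood well above the others. The rise was 2.06 on the log2 scale in ck2ts (SE 0.19, adjusted p = 0.000108), and spt6-7SA over ck2ts was -1.44 (SE 0.18, adjusted p = 0.000891). In spt6-7SA the rise of 0.62 (SE 0.18, adjusted p = 0.0282) was lost without WT replicate 1 (0.39, adjusted p = 0.115), without either spt6-7SA library and with the end parts alone (0.64, adjusted p = 0.0706). Its upstream window held 3 Rgt1 matches, which 4.13% of windows reach. Matches to AGGGG, the element bound by the stress factors Msn2 and Msn4, numbered 3 before HXT7, which 2.67% of windows reach, and 2 each before HXT5 and HXT6, which 10.8% reach, while every other member had 1 or none and 40.4% of windows held at least 1.

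HXT6 (YDR343C) and HXT7 (YDR342C) are high-affinity transporters normally repressed by abundant glucose, and their sequences are nearly the same. HXT6 read 790 and 871 CPM in ck2ts and 265 and 265 CPM in spt6-7SA, against 221 and 215 CPM in WT. HXT7 read 900.5 and 975 CPM in ck2ts and 295 and 299 CPM in spt6-7SA, against 231 and 227 CPM in WT. For both genes the 2 ck2ts libraries were several times above the rest, and spt6-7SA lay slightly above WT without overlap.

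The log2 fold change in ck2ts was 1.93 (SE 0.10, adjusted p = 1.41e-05) for HXT6 and 2.03 (SE 0.10, adjusted p = 1.24e-05) for HXT7. In spt6-7SA it was 0.28 (SE 0.10, adjusted p = 0.0446) for HXT6 and 0.38 (SE 0.10, adjusted p = 0.0149) for HXT7. Summed to 1 gene they gave 1.98 in ck2ts (adjusted p = 1.55e-05) and 0.33 in spt6-7SA (adjusted p = 0.0418). The deposited counts of both were equal or nearly so over most of the gene (below), so this sum is not a further measurement. Without any library of spt6-7SA or WT the spt6-7SA calls of both genes were lost at nearly the same size, HXT6 between 0.26 and 0.29 and HXT7 between 0.36 and 0.38. That of HXT6 was also lost with DESeq2 size factors (adjusted p = 0.0608), without the filter on low counts (adjusted p = 0.0602) and with scaling that leaves out mitochondrially encoded genes (adjusted p = 0.0538). The direct difference of spt6-7SA over ck2ts was -1.65 for HXT6 and -1.66 for HXT7 (SE 0.10 each, adjusted p = 4.64e-05 and 4.59e-05).

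HXT6 and HXT7 cannot be read as separate measurements. Each has 1713 coding bases, HXT6 at chrIV:1159608-1161320 and HXT7 at chrIV:1154216-1155928, both on the - strand, and the reference copies differ at 3 positions: T1632C, G1666A and T1677C (the base of HXT6, the position from 1 at the first base of the start codon, the base of HXT7). The last 60 coding bases of each are shown because they hold the last pair of these positions, in capitals.
HXT6 last 60 coding bases: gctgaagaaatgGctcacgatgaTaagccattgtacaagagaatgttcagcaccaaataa
HXT7 last 60 coding bases: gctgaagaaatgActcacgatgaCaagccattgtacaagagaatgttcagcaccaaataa
Of the 1664 words of 50 bases (the read length) in either gene, 1582 (95.1%) occur also in the other. The deposited counts of both were equal or nearly so over most of the gene. The 5′ part held 3107 and 3248 reads of HXT6 beside 3107 and 3247 of HXT7 in ck2ts, 783 and 727 of each in spt6-7SA, and 367 and 350 of each in WT. Outside both end parts the 2 genes had equal counts in all 6 libraries, 45483 and 41943 in ck2ts, 16281 and 16917 in spt6-7SA, and 17152 and 11895 in WT. Their sense counts thus differed almost only through the 3′ part.

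Parts of HXT7 and HXT6 are shared with HXT3 as well. The longest run of identical bases, 149 in length, lies at chrIV:1154426-1154574 in HXT7 and chrIV:1163167-1163315 in HXT3 (R64, - strand). HXT6 holds the same run, which is shown because a read drawn from it fits any of these genes.
Run shared by HXT7 and HXT3: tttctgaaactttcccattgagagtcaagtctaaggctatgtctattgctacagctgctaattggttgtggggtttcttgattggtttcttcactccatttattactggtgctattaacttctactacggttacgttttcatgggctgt
In all, 217 words occur in both HXT7 and HXT3, 13.0% of the words of HXT7 and 13.1% of those of HXT3. None of them starts within the 170 words at either end of HXT3. HXT1 shared 70 words with HXT5 and 13 with HXT4, and HXT3 shared 29 with HXT4. HXT2, SNF3, RGT2 and SUC2 shared none.

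**Figure D2:**
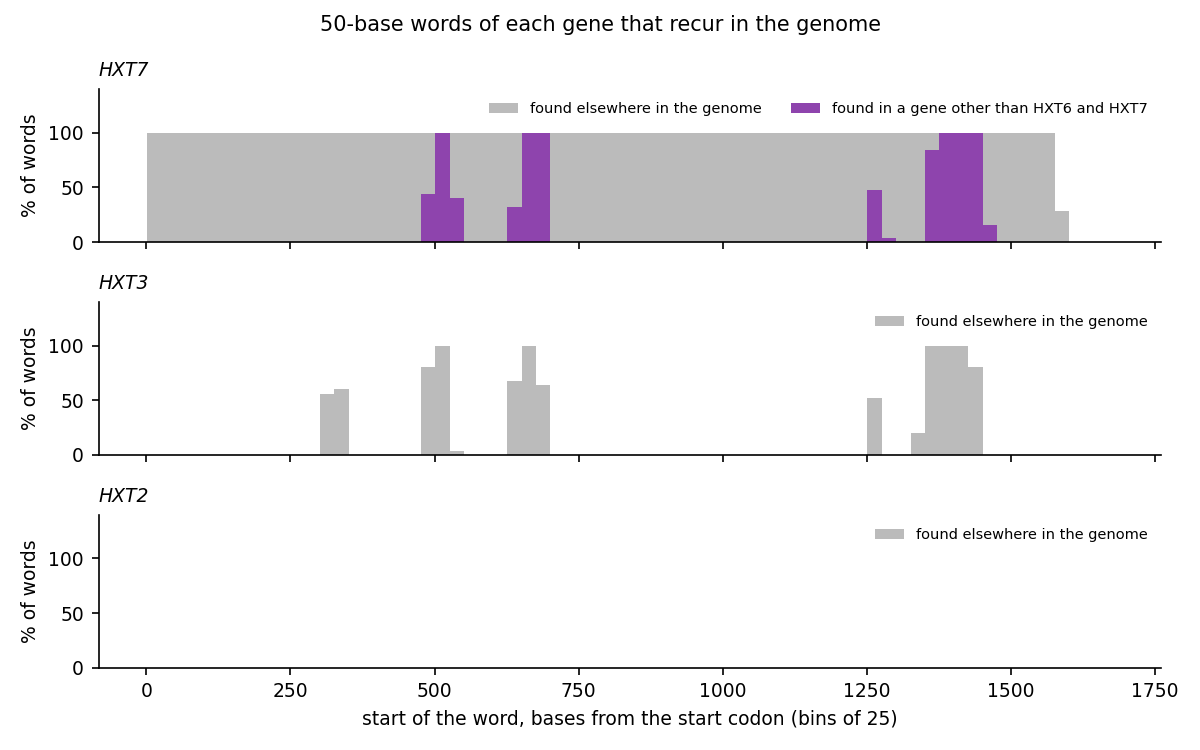
Share of 50-base words, in bins of 25 start positions counted from the start codon, that occur elsewhere in the genome, for HXT7, HXT3 and HXT2; purple marks words of HXT7 found in a gene other than HXT6 and HXT7. Nearly all of HXT7 recurs in HXT6, HXT3 shares words away from its ends (14.9% of its words recur), and HXT2 shares none.

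The share of reads outside both end parts was lower for HXT7 in both mutants than in WT. For HXT3 it was higher in ck2ts, while spt6-7SA overlapped WT. These shares were not tested. Reads outside both end parts made up 78.2% and 79.3% of HXT7 in ck2ts and 83.0% and 83.0% in spt6-7SA, against 92.5% and 90.5% in WT. For HXT3 the share was 82.9% and 83.2% in ck2ts, with 73.3% and 75.1% in spt6-7SA, against 71.6% and 74.2% in WT. Over 883 genes of 1500 to 2000 bases the median was 75.3% to 76.1% in every library.

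Counting the end parts alone changed the size of these folds but no direction. HXT7 then stood 3.36 log2 units higher in ck2ts (SE 0.15, adjusted p = 4.31e-06) and 1.38 higher in spt6-7SA (SE 0.14, adjusted p = 0.00047). On this count 56.2% of 6606 genes passed in ck2ts and 38.1% in spt6-7SA. HXT6 rose by 3.40 in ck2ts and by 1.08 in spt6-7SA, and HXT3 fell by 2.12 in ck2ts and by 0.86 in spt6-7SA. In the 3′ part HXT7 held 9554 and 7718 reads in ck2ts and 2561 and 2735 in spt6-7SA, against 1021 and 898 in WT, which is 10.3-fold and 2.79-fold higher by mean CPM. HXT6 had fewer reads there, with mean CPM of 37.4 in ck2ts, 7.06 in spt6-7SA and 3.35 in WT, beside 145, 39.3 and 14.1 for HXT7. For HXT6 this is 11.1-fold and 2.10-fold higher than WT. The sources used here do not give how far the parts reach or how reads with several places were assigned. HXT1, HXT4 and HXT5, which also share words with other members, stood in ck2ts at -1.11, 0.70 and 2.37 by the end parts alone. By all reads they stood at -0.89, 0.50 and 2.06. The part that shared reads play in the whole-gene folds of HXT1, HXT3, HXT4, HXT5, HXT6 and HXT7 was not tested.

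**Figure D3:**
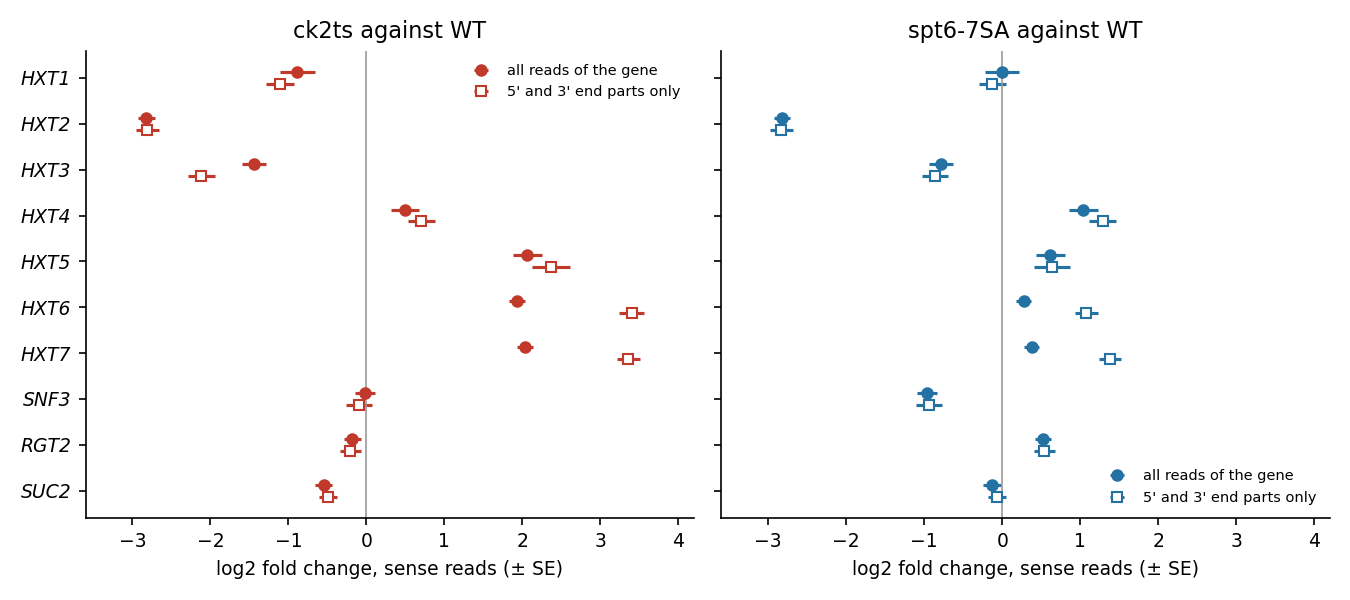
Log2 fold change of sense reads (± SE from edgeR) for ck2ts against WT and spt6-7SA against WT; filled circles use all reads of a gene and open squares the deposited 5′ and 3′ end parts alone. HXT6 and HXT7 lie at 1.93 and 2.03 in ck2ts with all reads but at 3.40 and 3.36 with the ends, and HXT2 lies near -2.82 either way.

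The sensors moved in opposite directions in spt6-7SA. SNF3 (YDL194W, chrIV:111580-114234, + strand), the sensor of low glucose, read 26.5 and 33.7 CPM in ck2ts and 14.8 and 16.4 CPM in spt6-7SA, against 30.2 and 30.8 CPM in WT. The spt6-7SA libraries lay below all others, and those of ck2ts spread around WT. SNF3 fell by 0.97 on the log2 scale in spt6-7SA (SE 0.13, adjusted p = 0.00113), and its log2 fold change was -0.02 in ck2ts (SE 0.13, adjusted p = 0.904). RGT2 (YDL138W, chrIV:213351-215642, + strand), the sensor of high glucose, read 40.5 and 34.1 CPM in ck2ts and 60.1 and 61.2 CPM in spt6-7SA, against 40.5 and 44.0 CPM in WT. Here the spt6-7SA libraries were the highest and ck2ts overlapped WT. RGT2 rose by 0.52 in spt6-7SA (SE 0.10, adjusted p = 0.00518) and differed by -0.18 in ck2ts (SE 0.10, adjusted p = 0.169), a value that passed without ck2ts replicate 1 (-0.31, adjusted p = 0.0402). Between the mutants, spt6-7SA over ck2ts was -0.95 for SNF3 (adjusted p = 0.000868) and 0.70 for RGT2 (adjusted p = 0.00123). In the 5′ part alone the rise of RGT2 in spt6-7SA (0.42, adjusted p = 0.119) and the difference of SNF3 between the mutants (-0.66, adjusted p = 0.0842) did not pass.

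SUC2 (YIL162W, chrIX:37385-38983, + strand) encodes invertase, which splits sucrose outside the cell, and is a standard target of repression by Mig1. It read 71.5 and 62.0 CPM in ck2ts and 89.1 and 89.3 CPM in spt6-7SA, against 106 and 89.4 CPM in WT. Both ck2ts libraries lay below all others. SUC2 had a log2 fold change of -0.55 in ck2ts (SE 0.11, adjusted p = 0.00356) and -0.13 in spt6-7SA (SE 0.11, adjusted p = 0.359), and spt6-7SA over ck2ts was 0.42 (SE 0.11, adjusted p = 0.0166). The last call was lost without ck2ts replicate 2 (0.32, adjusted p = 0.0871) and, at the same size of 0.42, without either spt6-7SA library (adjusted p = 0.0691 and 0.0697).

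SUC2 is known to give a long mRNA for the secreted enzyme and a shorter one, starting inside the gene, for an enzyme kept in the cell. Its deposited 5′ part held 2.23% and 1.55% of the sense reads in ck2ts and 2.09% and 1.25% in spt6-7SA, against 1.54% and 1.33% in WT. All 6 libraries were alike in this, and at most 2.49% of the 883 genes of like length had as small a share in any library, where the median gene had 8.52% to 9.80%. Counted in the 5′ part alone, the log2 fold change of SUC2 in ck2ts was -0.14 (adjusted p = 0.787), from 103 and 52 reads in ck2ts against 131 and 69 in WT.

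The stretch before SUC2, chrIX:36875-36994 (R64, + strand), is shown for its Mig1 matches, in capitals, of which the middle one runs into an Rgt1 match.
SUC2 upstream stretch: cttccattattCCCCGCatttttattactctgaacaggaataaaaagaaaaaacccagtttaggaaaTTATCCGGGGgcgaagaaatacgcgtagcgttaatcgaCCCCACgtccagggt
The 600-base window held 4 Mig1 matches for SUC2 and 4 for HXT4, a number that 0.284% of windows reach. HXT6 had 3, HXT7 had 2, SNF3 had 2, and HXT1, HXT5 and RGT2 had none.

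The order of the members by CPM per kilobase of coding sequence differed between the groups. In ck2ts HXT7 (548) and HXT6 (485) led, ahead of HXT3 (228), and HXT5 (87.3), HXT1 (69.0) and HXT2 (65.8) followed with overlapping neighbours. HXT4 (49.1) overlapped SUC2 (41.7), and RGT2 (16.3) and SNF3 (11.3) were lowest. In spt6-7SA HXT3 (359) led, then HXT7 (173), HXT6 (155), HXT1 (127), HXT4 (71.5), HXT2 (65.7), SUC2 (55.8), HXT5 (32.1), RGT2 (26.5) and SNF3 (5.87), with no overlap between neighbours. In WT HXT3 (619) and HXT2 (465) led, HXT7 (134), HXT1 (128) and HXT6 (127) overlapped, and SUC2 (61.1), HXT4 (34.8), HXT5 (20.9), RGT2 (18.4) and SNF3 (11.5) followed, of which HXT5 overlapped RGT2. The levels of HXT6 and HXT7 include the reads they share, and 217 words of each also occur in HXT3. How far shared reads alter the order of HXT1, HXT3, HXT4, HXT5, HXT6 and HXT7 was not tested.

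Directly compared, spt6-7SA was above ck2ts for HXT1, HXT3, HXT4, RGT2 and SUC2 and below it for HXT5, HXT6, HXT7 and SNF3, so that 9 of 10 members passed where 52.4% of all genes did, 27.7% higher and 24.7% lower. HXT2 alone did not pass. The balance of sense reads between the 3′ and the 5′ part did not pass for any of the 10 members in ck2ts, in spt6-7SA or between the mutants, by the edgeR interaction of part and group. Without adjustment it passed 0.05 for 1 member in ck2ts, HXT2 (0.38 log2 more toward the 3′ part, adjusted p = 0.364), and for 0 in the other comparisons. Over all 5510 genes 0.345%, 0.127% and 0.0181% passed after adjustment in ck2ts, in spt6-7SA and between the mutants, and no other tool was run on the parts. With a replicate block crossed with part in place of the library block, 7.31%, 5.68% and 4.59% of genes passed, and again 0 members. A balance that did not pass is thus not shown to be unchanged. The 5′ counts of HXT6 and HXT7 were equal or nearly so, so for these genes the test cannot give the balance along either one.

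Antisense log2 fold changes of the members reached 4.69 in ck2ts and 4.57 in spt6-7SA, both for SNF3. No member overlaps an annotated gene on the other strand. SUC2, which passed the filter on low counts only through the mutant libraries, is left out of the counts and medians that follow. Of the 9 other members, ck2ts had 5 with more antisense reads than WT (SNF3, HXT1, HXT2, HXT3 and RGT2), none with fewer and 4 not passing, where 62.0% of 6558 genes passed, 48.3% higher and 13.8% lower. In spt6-7SA 2 of the 9 rose (SNF3 and HXT2), 3 fell (RGT2, HXT4 and HXT5) and 4 did not pass, against 41.7% of all genes, 31.2% higher and 10.5% lower. The median log2 fold change of the 9 members was 1.22 in ck2ts, beside 0.62 over all genes, and 0.28 in spt6-7SA, beside 0.30. These values use the scaling of the sense reads; scaled on the antisense reads themselves, the median of all genes was 0.08 in ck2ts and -0.00 in spt6-7SA.

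SNF3 antisense reads numbered 703 and 251 in ck2ts, with 531 and 432 in spt6-7SA, against 20 and 21 in WT. Every mutant library was far above both WT libraries, and the ck2ts pair spread widely. By mean CPM this was 25.4-fold in ck2ts and 23.4-fold in spt6-7SA, with a log2 fold change of 4.69 (SE 0.50, adjusted p = 0.000147) and 4.57 (SE 0.50, adjusted p = 0.000383). The ck2ts value was 3.95 without ck2ts replicate 1 and 5.18 without ck2ts replicate 2. Antisense made up 29.1% and 12.1% of the reads of SNF3 in ck2ts and 35.1% and 27.9% in spt6-7SA, against 0.819% and 1.16% in WT; the 95% Wilson intervals, which cover counting error only, spanned no value under 10.7% in the mutant libraries and none over 1.77% in WT. On the sense strand SNF3 fell in spt6-7SA and did not pass in ck2ts.

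SUC2 had 62 and 36 antisense reads in ck2ts and 54 and 44 in spt6-7SA, against 5 and 3 in WT. The 4 mutant libraries were all above WT, given as a description with no test. Antisense was at most 1.33% of the reads of SUC2 in any library.

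HXT2 had 784 and 549 antisense reads in ck2ts and 471 and 418 in spt6-7SA, against 233 and 182 in WT. All 4 mutant libraries were above WT and ck2ts was highest. The log2 fold change was 1.88 (SE 0.17, adjusted p = 1.19e-07) in ck2ts and 1.13 (SE 0.17, adjusted p = 6.13e-05) in spt6-7SA. Antisense made up 9.62% and 9.19% of HXT2 reads in ck2ts and 6.10% and 5.54% in spt6-7SA, against 0.371% and 0.427% in WT.

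HXT1 and HXT3 gained antisense reads in ck2ts. HXT3 had 267 and 191 in ck2ts, with 57 and 61 in spt6-7SA, against 56 and 44 in WT, a log2 fold change of 2.40 in ck2ts (SE 0.24, adjusted p = 3.62e-07) and 0.27 in spt6-7SA (adjusted p = 0.419). HXT1 had 188 and 105 in ck2ts, with 55 and 57 in spt6-7SA, against 41 and 42 in WT, a log2 fold change of 1.99 in ck2ts (SE 0.29, adjusted p = 2.43e-05) and 0.45 in spt6-7SA (adjusted p = 0.268). Both genes passed in ck2ts and not in spt6-7SA, and the direct difference of spt6-7SA over ck2ts was -2.13 for HXT3 and -1.55 for HXT1 (adjusted p = 2.44e-06 and 0.000353).

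RGT2 went in opposite directions in the mutants. It had 1360 and 1140 antisense reads in ck2ts and 314 and 401 in spt6-7SA, against 739 and 510 in WT. The ck2ts libraries were highest and the spt6-7SA libraries lowest. RGT2 antisense rose by 1.22 in ck2ts (SE 0.14, adjusted p = 2.31e-06) and fell by 0.76 in spt6-7SA (SE 0.15, adjusted p = 0.000623), and the direct difference of spt6-7SA over ck2ts was -1.99 (SE 0.15, adjusted p = 5.36e-08). Antisense was 34.2% and 38.1% of RGT2 reads in ck2ts and 7.29% and 8.76% in spt6-7SA, against 18.5% and 16.7% in WT.

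HXT5 had 754 and 522 antisense reads in ck2ts and 440 and 452 in spt6-7SA, against 885 and 512 in WT. In CPM ck2ts overlapped WT and spt6-7SA lay below. HXT5 antisense had a log2 fold change of 0.10 in ck2ts (adjusted p = 0.596), which became -0.46 (adjusted p = 0.0348) under the scaling on antisense reads, and it fell by 0.59 in spt6-7SA (SE 0.16, adjusted p = 0.0074), a call lost without WT replicate 1 (-0.42, adjusted p = 0.127). Its antisense share was 6.25% and 6.62% in ck2ts, with 10.2% and 10.6% in spt6-7SA, against 26.1% and 16.9% in WT, and its sense reads were higher in both mutants.

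HXT4 antisense fell by 0.84 in spt6-7SA (41 and 39 reads, against 91 and 57 in WT; adjusted p = 0.0286), a call lost with DESeq2 (adjusted p = 0.0731) and without any library of spt6-7SA or WT. In ck2ts it was 0.52 (109 and 73 reads, adjusted p = 0.106), which passed without ck2ts replicate 2 (0.67, adjusted p = 0.0429) and was -0.041 under the scaling on antisense reads. Antisense of HXT6 and HXT7, shared like their sense reads, passed in neither mutant (-0.53 each in ck2ts, 0.28 and 0.30 in spt6-7SA). Under the scaling on antisense reads they passed in ck2ts, at -1.10 and -1.09, and were at -0.035 and -0.012 in spt6-7SA. They also passed in ck2ts without ck2ts replicate 1, at -0.85 and -0.91 (adjusted p = 0.0261 and 0.0193). Both passed between the mutants, where spt6-7SA over ck2ts was 0.81 for HXT6 and 0.83 for HXT7 (adjusted p = 0.0220 and 0.0208), and those calls were lost without ck2ts replicate 2 or without either spt6-7SA library. In all, 8 of the 9 members other than SUC2 passed between the mutants on the antisense strand, 2 higher and 6 lower in spt6-7SA, against 47.6% of all genes, 15.1% higher and 32.5% lower. The 2 higher were HXT6 and HXT7, which are not separate measurements.

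**Figure D4:**
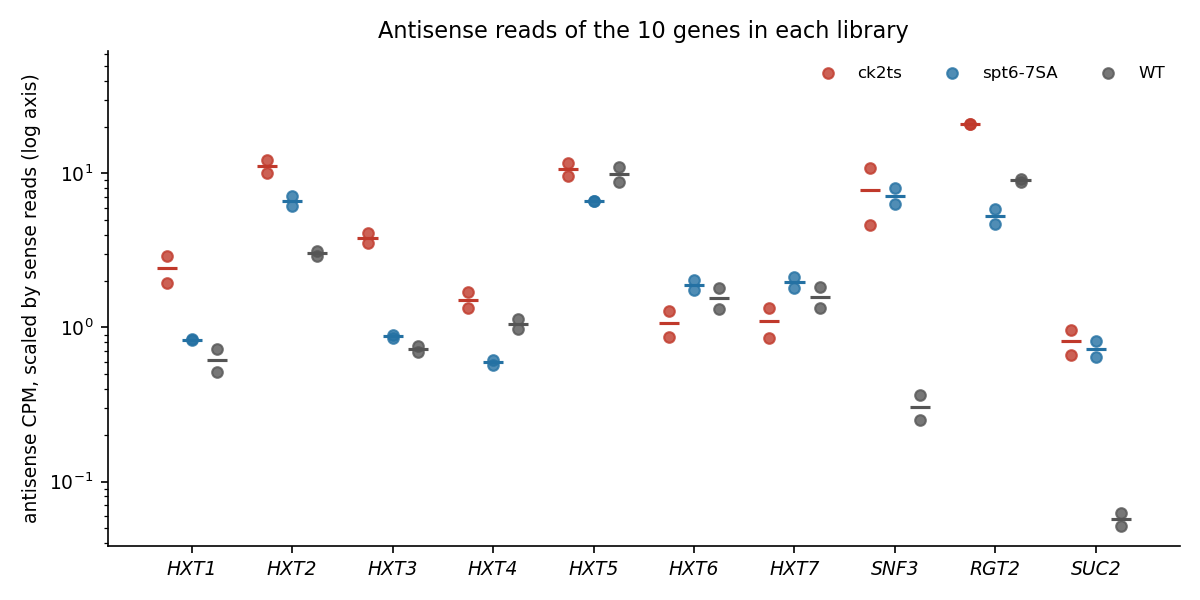
Antisense reads of the 10 genes as CPM of the sense library total on a log axis; each point is 1 library and each short line the mean of the 2 libraries of ck2ts, spt6-7SA or WT. SNF3 and SUC2 are higher in all mutant libraries, and RGT2 is highest in ck2ts and lowest in spt6-7SA.

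The genes whose sense level over the 6 libraries was most like that of a member were found among 5234 other protein-coding genes by the root mean square difference of centred log2 CPM. For HXT2 they were PHO84, DBP2 and IZH4, at differences of 0.42, 0.51 and 0.53, so none followed it closely. For HXT5 they were STF2, NDE2 and NNR2, at 0.07, 0.07 and 0.10. HXT7 was nearest to GDH1, SPO1 and ADR1, at 0.08 each, and HXT6 to GDH1, SPO1 and YLR152C, at 0.08, 0.10 and 0.10. Likeness over 6 libraries in 3 groups of 2 is a description and says nothing of shared control.

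Genes that act on the members were read as lists. Over all genes 32.5% were higher and 32.3% lower in ck2ts, and 26.7% higher and 24.1% lower in spt6-7SA, and the counts of every list below are to be read against these shares. Of 8 genes between the sensors and Rgt1, ck2ts had 1 that rose and 3 that fell, spt6-7SA had 2 that fell, and the others did not pass, with median log2 fold changes of -0.10 and -0.13. MTH1, a corepressor with Rgt1 of HXT genes, read 9.43 and 8.48 CPM in ck2ts and 26.8 and 22.7 CPM in spt6-7SA, against 31.5 and 23.7 CPM in WT. It fell by 1.62 in ck2ts (SE 0.16, adjusted p = 0.000108) and was at -0.16 in spt6-7SA (adjusted p = 0.415). Its paralogue STD1 was at -0.09 and -0.08 and passed in neither mutant. RGT1 rose by 0.31 in ck2ts (adjusted p = 0.0255) and was at -0.21 in spt6-7SA (adjusted p = 0.116). YCK2, a casein kinase 1 that marks Mth1 and Std1 for destruction, fell by 1.05 in ck2ts and by 0.37 in spt6-7SA, while CYC8, a corepressor subunit, fell by 0.60 in ck2ts and its partner TUP1 fell by 0.38 in spt6-7SA.

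Of 15 genes of the Snf1 and Mig1 route, ck2ts had 4 higher, 8 lower and 3 not passing, and spt6-7SA had 5 higher, 4 lower and 6 not passing, with medians of -0.26 and -0.03. MIG1 read 53.9 and 50.4 CPM in ck2ts and 87.9 and 75.0 CPM in spt6-7SA, against 104 and 96.5 CPM in WT, and it fell by 0.94 (adjusted p = 0.000162) and 0.30 (adjusted p = 0.0440). MIG2, a related repressor, fell by 2.09 in ck2ts (adjusted p = 0.00112) and was at -0.82 in spt6-7SA (adjusted p = 0.0565). MIG3 fell by 0.53 in ck2ts and rose by 0.47 in spt6-7SA. NRG1, a repressor of SUC2 and other glucose-repressed genes, rose by 1.31 in ck2ts (adjusted p = 4.35e-05) and by 1.11 in spt6-7SA (adjusted p = 0.00037). SIP2, which encodes a Snf1 subunit, and TOS3, which encodes a kinase that activates Snf1, rose by 1.19 and 1.17 in ck2ts. REG1, which directs the phosphatase acting on Snf1, rose by 0.58 in spt6-7SA and SAK1, which encodes another Snf1-activating kinase, fell by 0.55.

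All 4 genes of hexose phosphorylation, EMI2, a paralogue of GLK1, among them, rose in both mutants, with medians of 1.67 in ck2ts and 0.88 in spt6-7SA. GLK1, the glucokinase, read 1442 and 1745 CPM in ck2ts and 529 and 586 CPM in spt6-7SA, against 162 and 242 CPM in WT. The groups did not overlap, and GLK1 rose by 2.98 (SE 0.22, adjusted p = 3.02e-05) and 1.46 (SE 0.20, adjusted p = 0.00138). HXK1 rose by 2.40 and 0.94, and HXK2, the main hexokinase in glucose, by 0.54 and 0.49 in ck2ts and spt6-7SA.

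The 10 other genes of the HXT family, GAL2 included, were low in all groups. In ck2ts 6 rose and 4 did not pass, and in spt6-7SA 9 rose and 1 did not pass, with medians of 1.15 and 1.26. GAL2, the galactose transporter, read 3.81 and 4.39 CPM in ck2ts and 1.84 and 1.67 CPM in spt6-7SA, against 0.698 and 0.759 CPM in WT. HXT10 rose by 2.05 in ck2ts and 1.41 in spt6-7SA, HXT9 by 1.41 and 1.97, and HXT11 by 1.30 and 1.64. Several of these genes are close copies of each other, so how the change divides among them is uncertain.

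Of 12 genes for other carbon sources that need Snf1, ck2ts had 11 higher and 1 not passing, and spt6-7SA had 7 higher, 1 lower and 4 not passing, with medians of 1.54 and 0.52. CYB2 and MLS1, which serve the use of lactate and of acetate, rose by 2.32 and 2.76 in ck2ts and by 0.57 and 0.49 in spt6-7SA. ADR1, an activator of glucose-repressed genes, read 324 and 360 CPM in ck2ts and 113 and 123 CPM in spt6-7SA, against 78.5 and 83.4 CPM in WT. CAT8 and SIP4, activators of the genes of sugar synthesis, rose by 1.38 and 1.68 in ck2ts and by 1.28 and 1.60 in spt6-7SA, and FBP1, an enzyme of that pathway, rose by 1.76 and 1.40. SUC2, itself a gene under Mig1 and Snf1, fell in ck2ts and did not pass in spt6-7SA.

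**Figure D5:**
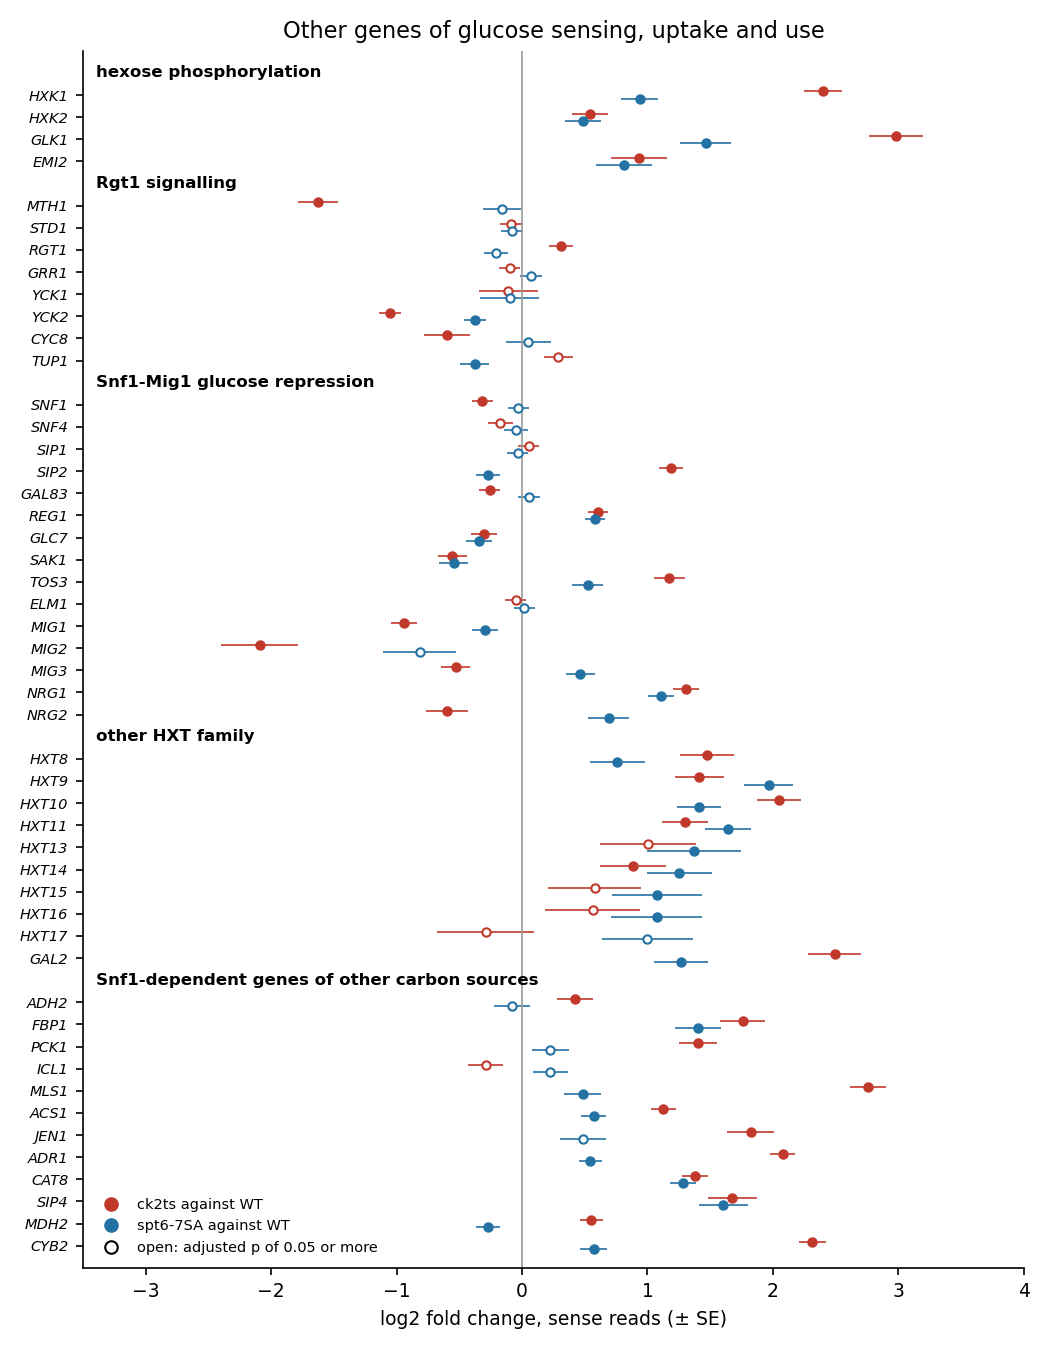
Log2 fold change of sense reads (± SE from edgeR) of the listed genes of glucose sensing, uptake and use, for ck2ts (red) and spt6-7SA (blue) against WT; filled points have an adjusted p under 0.05. All genes of hexose phosphorylation lie above 0 in both mutants, and MIG2, MTH1 and YCK2 lie lowest in ck2ts.

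Markers of mating type also moved with the groups. Of 8 such genes tested, 4 rose and 4 fell in ck2ts, and 7 rose and 1 did not pass in spt6-7SA. STE2 read 96.9 and 105 CPM in ck2ts and 354 and 340 CPM in spt6-7SA, against 202 and 156 CPM in WT, and the alpha-cell gene SAG1 read 80.8 and 68.6 CPM in ck2ts and 43.5 and 38.0 CPM in spt6-7SA, against 29.7 and 24.3 CPM in WT. Their part in the results above was not tested.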

How the data were processed

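The authors deposited raw counts of reads on each strand of each exon, made, per the submitters' processing notes, with Trimmomatic, BWA and SAMtools on genome build R64. Tool versions are not stated in those notes. Further deposited counts cover a 5′ and a 3′ part of each exon. Counts of 7553 exons were summed to 7126 genes. Sense counts were scaled by TMM and tested by quasi-likelihood in edgeR 4.0.16 under R 4.3.3, with the robust option, over all 6 libraries, after filterByExpr with a minimum count of 10, with Benjamini-Hochberg adjustment over all genes tested and a threshold of 0.05. Antisense counts were tested the same way with the library sizes and TMM factors of the sense counts. The balance of the parts was tested as the interaction of part and group with a library block, on genes whose parts each averaged 20 reads or more. Replicates of a gene varied by a common coefficient of 0.116 (sense) and 0.159 (antisense). Sequences and coordinates come from the RefSeq copy of build R64, where start and end equalled those in the files for 6036 of 6048 genes found by locus tag. Fold changes and tests were checked on simulated counts. The simulation changed a small share of genes, in ck2ts alone, as often up as down and at a common spread. It does not test the scaling where most genes change.

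The members and lists were chosen with earlier results of these data known. All members are given; of each list, up to 3 genes with the smallest p per comparison with WT among those that passed, and MTH1, STD1, RGT1, MIG1 to MIG3, HXK1, HXK2 and GLK1 in any case. Genes most like a member are given for the 4 members of widest range, 3 each, with a mean of at least 10 CPM. Settings tried in turn were DESeq2 1.42.0, its size factors within edgeR, other scaling, filters, the groups fitted, a replicate block, HXT6 and HXT7 as 1 gene and leaving out each library; the end parts alone, and the antisense test without the 1091 genes that overlap the other strand, were added after the data were seen. Python 3.11.15, pandas 2.3.3 and matplotlib 3.10.9 were used for tables and figures.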

Additional observations from a re-analysis of the deposited data

How the results depend on the processing

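Of the results of the members carried through the alternatives, 771 kept direction and side of the threshold, 57 kept direction but no longer passed, 7 newly passed and 23 turned direction. All results that changed were log2 fold changes of sense or antisense reads. The tally includes antisense of SUC2, which passed the filter on low counts only through the mutant libraries. After turning, values were near 0, except HXT5 antisense below and SNF3 antisense between the mutants. Before turning, antisense of HXT4 in ck2ts stood at 0.52, and that of HXT3, HXT6 and HXT7 in spt6-7SA at 0.27, 0.28 and 0.30. No fold change of the 3′ against 5′ balance is counted as turned, though some changed sign with 1 library left out. HXT7 ranged from -0.17 to 0.20 and HXT3 from -0.14 to 0.19 in ck2ts, and SUC2 from -0.57 to 0.33 in spt6-7SA. Scaling by total sense reads, which moved the median of all genes in spt6-7SA to 0.12, gave HXT1 0.093 in spt6-7SA and HXT2 0.10 for spt6-7SA over ck2ts. Scaling by antisense reads gave, in ck2ts, HXT4 -0.041 and HXT5 -0.46 (adjusted p = 0.0348), and HXT6 and HXT7 at -1.10 and -1.09, which then passed; in spt6-7SA, HXT3 -0.032, HXT6 -0.035 and HXT7 -0.012; and for spt6-7SA over ck2ts, SNF3 0.16 and SUC2 0.090. Parts counted alone gave SNF3 0.029 in ck2ts (3′), SUC2 0.071 in spt6-7SA (5′) and HXT2 0.20 for spt6-7SA over ck2ts (5′).

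Leaving out 1 library at a time gave ranges of -0.21 to 0.14 for SNF3 in ck2ts, -0.20 to 0.21 for HXT1 in spt6-7SA and -0.10 to 0.086 for HXT2 between the mutants; on the antisense strand, -0.049 to 0.27 for HXT5 in ck2ts, and between the mutants -0.60 to 0.63 for SNF3 and -0.40 to 0.13 for SUC2. SNF3 antisense in spt6-7SA over ck2ts was 0.63 without ck2ts replicate 1 (adjusted p = 0.0293) and -0.60 without ck2ts replicate 2 (adjusted p = 0.0172), so its direction rests on the ck2ts library left in. The number of members that passed on the sense strand was 5 to 8 in spt6-7SA, at 5 without WT replicate 1 or either spt6-7SA library, and 5 to 8 between the mutants, at 5 without spt6-7SA replicate 2. In spt6-7SA the share of all genes that passed was then 34.5% without WT replicate 1, 32.9% without spt6-7SA replicate 1 and 33.5% without spt6-7SA replicate 2, beside 50.8% with all libraries, and between the mutants it was 36.6%, beside 52.4%. A lone library of a group was assumed to vary like the other groups. The cause of these changes was not tested.

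Replicate numbers pair nothing in the labels, and each comparison has only 2 pairs. Deviations of same-numbered libraries correlated at 0.351, 0.294 and 0.395 over 6778 genes (ck2ts and WT, spt6-7SA and WT, spt6-7SA and ck2ts). With the replicate block 7 members passed on the sense strand in ck2ts and 7 in spt6-7SA; HXT4 in ck2ts (0.48, adjusted p = 0.0621) and HXT5 in spt6-7SA (0.62, adjusted p = 0.103) did not, and HXT1 in spt6-7SA was 0.0079. With the block 73.8% of all genes passed in ck2ts and 64.7% in spt6-7SA, beside 64.8% and 50.8%. The other counts, 9 between the mutants and, on the antisense strand, 5, 5 and 8 of the 9 members other than SUC2, were the same with the block. Shallow antisense counts limit SUC2, HXT4, HXT6 and HXT7, with 3 to 146 reads a library. The antisense folds of SNF3, HXT1 and HXT3 also rest on shallow WT counts, of 20 and 21, 41 and 42, and 56 and 44 reads.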
